A study of Brassica napus with 16 samples.

Results

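Young leaf and silique, the pod that forms from the fertilised pistil, are the green shoot organs among the 4 tissues profiled by RNA-seq in Brassica napus (oilseed rape). Their 8 libraries were chosen by the tissue in their labels from 16 in all. Each organ was sampled in the cultivars 2063A and B409 with 2 replicates, which gives 4 young leaf and 4 silique libraries. Young leaves came from plants grown for 2 weeks in hydroponic culture, in a growth room with 16 h of light at 22 °C and 8 h of darkness at 18 °C. Siliques were 3 to 5 cm long and came from plants moved to the field at about 20 d. Organ therefore cannot be told apart from plant age and growing place. No treatment or transgene is given for any group, and the labels name no separate plants behind the replicates, so a p-value reflects variation among these samples, which could be purely technical.

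A leaf is an organ in which most cells are built for photosynthesis. A silique combines a photosynthetic pod wall with vascular strands, a septum and developing seeds, in which the embryo accumulates oil and storage protein as the pod matures. Brassica napus is an allotetraploid, so many genes exist as a copy on an A and a copy on a C chromosome, and the identifiers carry that chromosome. The labels do not say whether seeds were left in the pods. In whole organs, fewer cells of a type and less RNA per cell cannot be told apart.

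Expression is given as FPKM, fragments per kilobase of transcript relative to all mapped fragments. Of 101040 listed genes, 44971 reached an FPKM of 1 in at least 2 of the 8 libraries and were tested. Between 33483 and 35976 genes reached that level in a young leaf library and between 38710 and 40398 in a silique library, so the organs did not overlap. Low FPKM values lay on steps (56.4% to 75.2% of their ratios between libraries), which gave the relative depth of the libraries. Against replicate 1 of 2063A silique, the shallowest, depth was 1.27 to 2.69 in young leaf and up to 2.38 in silique, and in each group replicate 2 was the deeper library. Replicates differed more in young leaf, where 3083 genes in 2063A and 3649 in B409 lay at least 2-fold apart between replicates, than in silique, where 385 and 106 did. Deviations of replicate 1 from replicate 2 were shared by the young leaves of the cultivars (r = 0.35 across genes, which are not independent) and not by their siliques (r = 0.04). The sources used here pair none of these identifiers with a gene function, so genes are given by identifier. The organ labels were not checked against marker genes, and no group of genes by function is described.

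The most abundant transcripts of the young leaf made up more of its RNA than those of the silique did. The 100 most abundant genes of each library held 24.0% to 26.9% of summed FPKM in young leaf and 11.9% to 12.5% in silique. The 10 most abundant held 7.05% to 8.49% and 3.45% to 3.68%. The lists of the most abundant genes overlapped in part. Of the 100 genes with the highest mean in young leaf, 51 were among the 100 highest in silique, and at 1000 genes each the lists shared 521. Taken as a fixed set, the 100 highest genes of young leaf accounted for 25.1% ± 1.44 of the young leaf FPKM total (SD, n = 4). Their share was 8.6% ± 0.452 of the silique total, 3.12% ± 0.436 of the flower bud total and 0.138% ± 0.0317 of the root total. The 100 highest genes of silique held 12.1% ± 0.281 in silique and 18.6% ± 0.583 in young leaf. Their share was thus higher in the young leaf than in the organ that ranked them. Flower bud and root had no part in choosing these sets.

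The most abundant gene of both organs was BnaC04g30870D. In young leaf it stood at 7756 and 7147 in 2063A and at 8590 and 6580 in B409, and in silique at 3105 and 2929 in 2063A and at 3704 and 3723 in B409. Every young leaf library lay above every silique library (log2 difference 1.16, SE 0.14, limma adjusted p = 0.00011). BnaA04g20150D stood at 4742 and 5000 in young leaf of 2063A and at 6815 and 9322 in B409. In silique it was at 1354 and 1338 in 2063A and at 2715 and 2555 in B409, again without overlap (log2 difference 1.73, SE 0.14, adjusted p = 1.1e-05). Both were present in flower bud, at 1223 ± 258 and 857 ± 207 (SD, n = 4), and neither exceeded 0.872 in root. The size of these differences varied with the scaling. BnaC04g30870D was at 1.059 with equal totals and 1.645 with the median of ratios, and BnaA04g20150D at 1.625 and 2.21, all of them called. After quantile normalization the log2 difference of BnaC04g30870D was -0.05 and that of BnaA04g20150D was 0.49, and neither was called. That method gives genes of equal rank equal values, so it cannot show a difference for a gene that ranks alike in both organs.

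**Figure D1:**
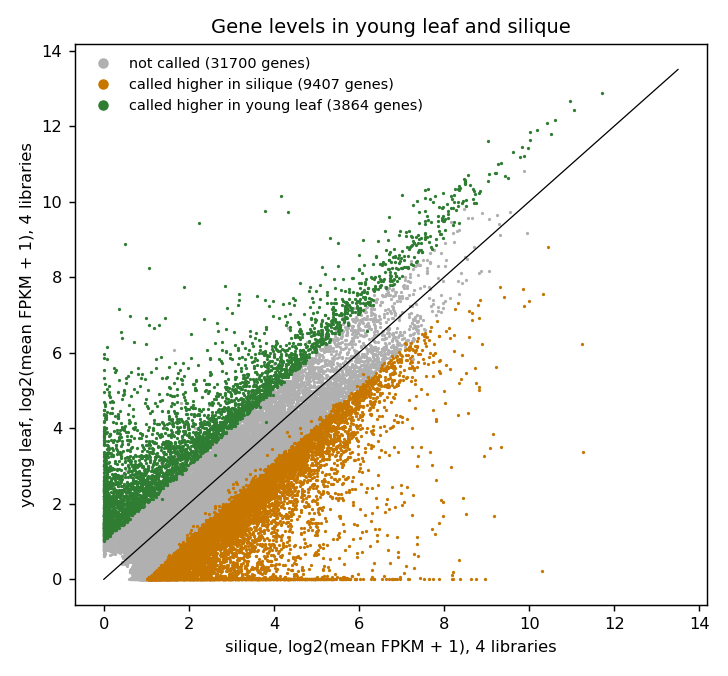
Mean level of each tested gene in the 4 silique libraries (x axis) and the 4 young leaf libraries (y axis), both as log2(mean FPKM + 1), with the line of equal levels. Of 44971 genes, 3864 were called higher in young leaf and 9407 higher in silique, and the highest points lie above the line.

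Which genes separate the organs was tested with limma on log2(FPKM + 1), with cultivar as a covariate. A gene was called at an adjusted p below 0.05 and a difference of at least 2-fold. With FPKM as deposited, 3864 genes (8.59% of those tested) were higher in young leaf and 9407 (20.9%) higher in silique, and 29.5% were called in either direction. The median difference of all tested genes was -0.44 on the log2 scale (young leaf minus silique), and the lean to silique varied with the scaling. With the 8 libraries scaled by the median of gene ratios, that median was -0.10 and the counts were 5998 higher in young leaf and 5189 higher in silique. Quantile normalization gave 5895 and 5159, and equal totals gave 3488 and 10695. Young leaf accounted for 29.1% of calls with deposited FPKM, 24.6% with equal totals, 53.6% with the median of ratios and 53.3% after quantile normalization. No gene called as deposited was called in the opposite direction under the other 3. All 4 scalings called 3370 genes higher in young leaf and 4758 higher in silique. The median of ratios and quantile normalization set the libraries to alike typical levels, which moves the median difference toward 0. Whether the lean to silique comes from the scaling was not tested.

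**Figure D2:**
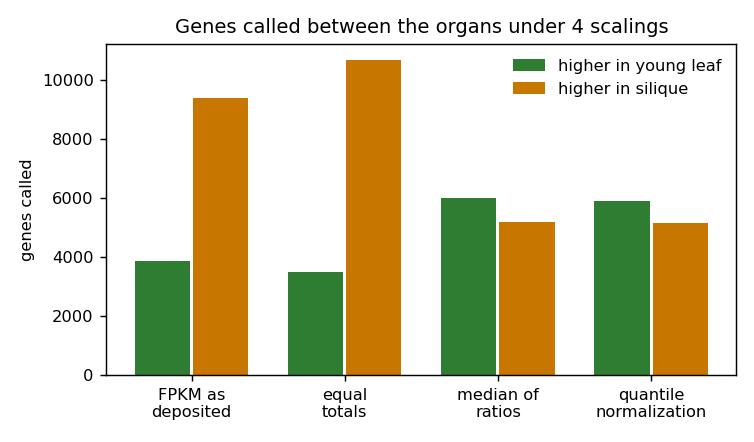
Number of genes called higher in young leaf (green bars) or in silique (orange bars) under 4 scalings of the same 8 libraries. Silique leads with 9407 against 3864 genes as deposited, and young leaf with 5998 against 5189 under the median of ratios.

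With FPKM as deposited, the direction of the calls differed with expression level. Calls under the other scalings were not split by level. Among the 701 tested genes with a mean FPKM of 100 or more over the 8 libraries, 47.6% were called higher in young leaf and 19% higher in silique, and their median log2 difference was 0.94. Among the 13926 genes between 5 and 20, the shares were 8.51% and 24.6%, with a median of -0.50. Genes higher in young leaf together accounted for 49.0% ± 2.44 of the young leaf FPKM total and 16.0% ± 0.794 of the silique total (SD, n = 4). The more numerous genes higher in silique accounted for 33.7% ± 0.286 of the silique total and 8.0% ± 1.04 of the young leaf total. For the genes called in all 4 scalings the shares were lower. The young leaf set then accounted for 23.9% ± 1.55 of the young leaf total and 6.49% ± 0.368 of the silique total, and the silique set for 20.7% ± 0.327 of the silique total and 2.95% ± 0.496 of the young leaf total. These shares describe genes chosen on the same libraries.

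Called genes included many that were present in both organs and many that were near absent from one. Of the genes higher in young leaf, 2170 (56.2%) stayed at an FPKM of 1 or more in all 8 libraries and 1137 (29.4%) were below 1 in every silique library. Of those higher in silique, 4216 (44.8%) were at 1 or more throughout and 2715 (28.9%) were below 1 in every young leaf library. The order turned for silique among genes called in all 4 scalings, where 1501 (31.5%) were at 1 or more throughout and 1991 (41.8%) were below 1 in every young leaf library. For young leaf these counts were 1773 (52.6%) and 1077 (32%). Differences of at least 8-fold, a log2 size of 3, were found for 257 genes higher in young leaf and 797 higher in silique. The organs did not overlap for 3442 and 8450 of the called genes. Over all tested genes 49.7% showed no overlap in either direction, 12.4% with young leaf higher and 37.3% with silique higher.

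Among genes called without overlap and with no library of the 8 listed at 0, the largest contrast toward young leaf belonged to BnaC05g01450D. It stood at 600 and 209 in young leaf of 2063A and at 1043 and 903.5 in B409, and in silique at 2.19 and 1.16 in 2063A and at 5.6 and 5.87 in B409. The lowest young leaf library was far above the highest silique library (log2 difference 7.13, SE 0.29, adjusted p = 1.4e-07), and no flower bud or root library exceeded 0.496. BnaC06g28720D followed, with 1899 and 1069 in young leaf of 2063A and 420.5 and 1137 in B409. Its silique values were uneven between the replicates of 2063A, at 13.1 and 45.6, and were 4.95 and 3.93 in B409 (log2 difference 6.40, SE 0.46, adjusted p = 5.2e-06). A dependence of its organ difference on cultivar was not called (limma interaction adjusted p = 0.78). The gene next to it by identifier number, BnaC06g28730D, ranked directly after it (log2 difference 6.32, SE 0.42). Whether the neighbours are alike in sequence and shared reads was not tested. The 8 leading genes under these conditions spanned log2 differences of 5.61 to 7.13. Of these, 4 had a root mean above 10 and 0 a flower bud mean above 10.

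Under the same conditions the largest contrast toward silique was found for BnaA05g14890D, at 1819 and 1834 in silique of 2063A and at 2929 and 3304 in B409. In young leaf it stood at 2.42 and 15.4 in 2063A and at 16.1 and 3.39 in B409 (log2 difference -8.21, SE 0.51, adjusted p = 2.3e-06). Flower bud lay between the organs at 212 ± 19.4 (SD, n = 4), and root did not exceed 0.554. BnaA01g30830D had the same order. It was at 522 and 525 in silique of 2063A and at 577 and 684 in B409, and between 0.0912 and 4.74 in young leaf (log2 difference -7.85, SE 0.50, adjusted p = 2.7e-06). Its flower bud mean was 213 ± 54.8 (SD, n = 4). The 8 such genes on the silique side spanned log2 differences of -8.21 to -6.37, and 5 of them had a flower bud mean above 10 and 2 a root mean above 10.

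BnaA07g30010D, with a library listed at 0 and so outside that ranking, differed more. It was at 877 and 903.5 in silique of 2063A and at 1589 and 1703 in B409, and did not exceed 0.47 in young leaf (log2 difference -10.04, SE 0.24, adjusted p = 7.5e-09). BnaCnng42990D, which carries no chromosome, was the second most abundant gene called higher in silique, at 2723 and 2705 in 2063A and at 2164 and 2150 in B409. Its young leaf values were uneven, at 2.85 and 96.7 in 2063A and at 41.6 and 153 in B409, which gave a wide error (log2 difference -5.93, SE 0.92, adjusted p = 0.00052). BnaA01g11800D was abundant in both organs. It was at 1679 and 1592 in silique of 2063A, at 1169 and 1164 in B409, and between 325 and 676 in young leaf (log2 difference -1.71, SE 0.22, adjusted p = 0.00018).

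**Figure D3:**
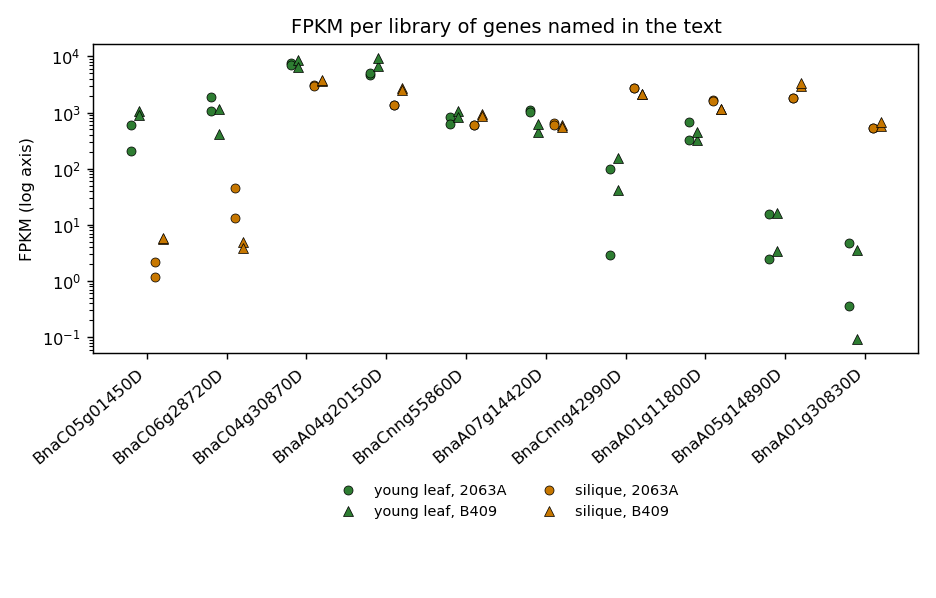
FPKM on a log axis in each of the 8 libraries for 10 genes named in the text, with young leaf in green, silique in orange, circles for 2063A and triangles for B409. BnaC05g01450D is at 209 or more in every young leaf library and at 5.87 or less in silique, BnaA05g14890D shows the opposite order, and BnaCnng55860D is at a like level in both organs.

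Some genes were at an FPKM of 1 or more in every library of an organ and listed at 0 in all 4 libraries of the other. An exact 0 in such files can be a failed estimate, so no fold is given for them. There were 98 such genes for young leaf and 765 for silique, out of 28107 and 34814 at 1 or more in every library of the organ. All of them were called, which the way they were chosen largely fixes. The p-values given for them here are likewise from the libraries that chose them. Of the 98, 20 were also listed at 0 in every flower bud and root library, and 34 were at 1 or more in all 4 root libraries. Of the 765, 429 were listed at 0 in every flower bud and root library, while 101 were at 1 or more in all 4 flower bud libraries and 45 in all 4 root libraries. Whether these shares differ between the organs was not tested. In young leaf, BnaA01g27380D stood at 104 and 101 in 2063A and at 26.8 and 14.3 in B409 (adjusted p = 8.3e-06). BnaA01g27400D, close to it by identifier number, stood at 93.6 and 95.2 in 2063A and at 24.5 and 13.4 in B409 (adjusted p = 9e-06). The 12 remaining libraries of the series listed each at 0, and in young leaf the level of both in 2063A exceeded that in B409. In silique, BnaA05g18870D stood at 386 and 408.6 in 2063A and at 535.5 and 658 in B409 (adjusted p = 2.5e-09), and BnaA05g20420D at 388 and 417 in 2063A and at 404 and 509 in B409 (adjusted p = 2.5e-09).

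Flower bud and root, which the contrast did not use, were then set beside the called genes. For each gene the mean log2 level in flower bud and in root was assigned to the nearer of the 2 organ means. Of the 3370 genes higher in young leaf under all 4 scalings, 2323 (68.9%) were on the silique side in both flower bud and root. Another 724 (21.5%) were on the young leaf side in root and not in flower bud, 186 (5.52%) in flower bud and not in root, and 137 (4.07%) in both. Of the 4758 genes higher in silique, 1414 (29.7%) were on the low, young leaf side in both tissues, 1472 (30.9%) were on the silique side in both, 1261 (26.5%) in flower bud alone and 611 (12.8%) in root alone. The same shares over all 12704 tested genes with a higher mean in young leaf were 50.5% on the silique side in both tissues, 21.5% on the young leaf side in root alone, 13.6% in flower bud alone and 14.4% in both. The share in root alone was thus at the background. Over all 32267 tested genes with a higher mean in silique, 12.5% were on the young leaf side in both, 51.0% on the silique side in both, 24.6% in flower bud alone and 11.9% in root alone. Among the 4758, the share on the silique side in both tissues was therefore below the background, the share on the young leaf side in both was above it, and the other shares were near it. Over the 3370 genes the median level was 11.1 in young leaf, against 1.96 in silique, 1.86 for flower bud and 1.19 for root. The median gene of the 4758 stood at 9.19 in silique, 0.896 in young leaf, 4.49 in flower bud and 2.83 in root.

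**Figure D4:**
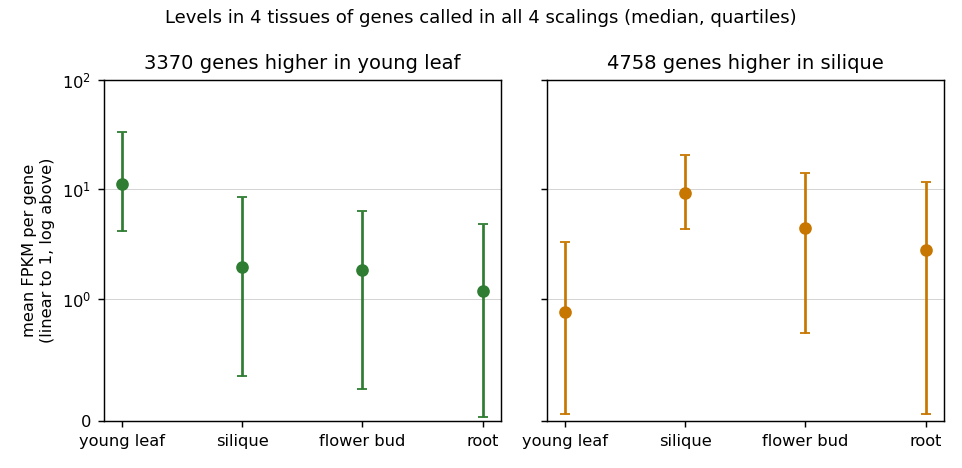
Mean FPKM per gene in 4 tissues, as the median (point) and the quartiles (bars) over the genes called in all 4 scalings, on an axis that is linear up to 1 and logarithmic above. Genes higher in young leaf have medians of 1.96, 1.86 and 1.19 in silique, flower bud and root, and genes higher in silique have medians of 4.49 in flower bud and 2.83 in root and 0.896 in young leaf.

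Single genes show these patterns. BnaCnng37610D was the gene with the largest young leaf contrast among those on the high side in both other tissues, again with no overlap and no library listed at 0. It was at 23.3 and 34.8 in young leaf of 2063A and at 48.7 and 24.9 in B409, and between 1.04 and 3.09 in silique (log2 difference 3.54, SE 0.28, adjusted p = 9.5e-06). It was at 15.9 ± 2.87 in flower bud and at 334 ± 38.6 in root (SD, n = 4 each), so silique was the low tissue. On the silique side, the first such gene was BnaC08g41620D. It was at 156 and 167 in silique of 2063A and at 155 and 179 in B409, and between 0.17 and 2.09 in young leaf (log2 difference -6.37, SE 0.29, adjusted p = 3e-07). Flower bud stood at 47.8 ± 31.3 and root at 115 ± 11.1 (SD, n = 4 each), so young leaf was the low tissue. In BnaAnng37980D, the next, young leaf was also lowest. It was at 17.7 and 13.6 in young leaf of 2063A and at 6.09 and 2.96 in B409, and in silique at 764.5 and 608 in 2063A and at 387.5 and 392 in B409 (log2 difference -5.79, SE 0.24, adjusted p = 1.5e-07). Flower bud stood at 2135 ± 538 and root at 106.5 ± 30.2 (SD, n = 4 each). BnaC09g38100D was high in silique alone of the 4 tissues. It was at 169 and 152 in silique of 2063A and at 170.5 and 178.5 in B409, and between 0.341 and 0.741 in young leaf (log2 difference -6.79, SE 0.14, adjusted p = 4.7e-09). It did not exceed 0.317 in flower bud and was listed at 0 in every root library. BnaA05g09690D was likewise at 195 and 208 in silique of 2063A and at 105 and 115 in B409, and did not exceed 1.07 in young leaf or 2.05 elsewhere.

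For 19228 genes (42.8% of those tested) the 95% interval of the organ difference lay within 2-fold either way. The bound is on log2(FPKM + 1), which understates differences of low genes, so for these it is no bound on the FPKM ratio. With a pseudocount of 0.1 in place of 1 the number of bounded genes was 10556. For 12472 genes (27.7%) the difference was neither called nor bounded in this way. Of the 19228, 12866 were at an FPKM of 1 or more in all 8 libraries, and 763 of these were below 1 in all 4 root libraries. Below 1 in all root and all flower bud libraries were 41 of them. BnaCnng55860D had the highest mean. It stood at 848 and 620 in young leaf of 2063A and at 1067 and 825.5 in B409, and in silique at 602 and 594.5 in 2063A and at 926 and 866 in B409. Its log2 difference was 0.17 (95% interval -0.17 to 0.51), with 119.5 ± 20.1 in flower bud (SD, n = 4) and 0 in every root library. BnaA07g14420D was at 1129 and 1003 in young leaf of 2063A, at 448 and 614.5 in B409, and between 557 and 637 in silique (log2 difference 0.31, 95% interval -0.15 to 0.77). It too was listed at 0 in every root library. Under the median of ratios the interval of both genes reached past 2-fold, with a largest absolute bound of 1.05 and 1.31 on the log2 scale, and after quantile normalization the bounds were 1.30 and 1.21.

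Whether the organ difference depended on the cultivar was tested as an interaction. Across the tested genes the difference in 2063A and that in B409, which share no library, correlated at r = 0.865, a description over genes that are not independent. Of the genes called over both cultivars, 2910 higher in young leaf (75.3%) and 6680 higher in silique (71.0%) differed at least 2-fold in each cultivar. These genes were called on the same libraries for a difference of at least 2-fold over both cultivars, which favours such shares. Limma called an interaction for 758 genes (1.69% of those tested), and 4869 genes (10.8%) had an unadjusted p below 0.05. Of the 758, 354 were below an FPKM of 1 in all 4 libraries of 1 cultivar, and so in both of its organs. The number of interactions fell when any 1 of the silique libraries was left out. It was 56 and 77 without replicate 1 and replicate 2 of 2063A silique, 9 and 8 without those of B409 silique, and 456 without replicate 1 of 2063A young leaf. Without both young leaf libraries numbered 1 it was 1938, with the spread then estimated from silique alone. The organ difference reached at least 2-fold in opposite directions for 17 of the 758 genes, 2 with young leaf higher in 2063A and 15 with young leaf higher in B409.

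BnaC02g00930D had the smallest interaction p. In silique it stood at 4.13 and 4.15 in 2063A and at 96.6 and 102 in B409, and in young leaf at 0 except for 0.108 in replicate 1 of B409 (interaction 4.21 on the log2 scale, SE 0.24, adjusted p = 0.00069). BnaA01g28070D had silique values of 17.8 and 19.1 in 2063A and 257 and 278 in B409, and was listed at 0 in every young leaf library (interaction adjusted p = 0.00091). In both genes the cultivars differed in how high silique stood. BnaA07g06900D changed direction. It was at 0 and 0.455 in young leaf of 2063A and at 16.1 and 23.5 in B409, while silique was at 13.9 and 16.2 in 2063A and at 5.16 and 5.01 in B409 (interaction -5.48, SE 0.36, adjusted p = 0.001). BnaA01g33410D was at 0 and 0.0928 in young leaf of 2063A and at 107 and 88.9 in B409, and in silique at 4.24 and 4.29 in 2063A and at 37.7 and 38.5 in B409 (interaction -3.66, SE 0.25, adjusted p = 0.0012). Without replicate 1 of B409 silique, neither BnaA07g06900D nor BnaA01g33410D passed (adjusted p = 0.0578 and 0.0625). Without its replicate 2 they did not pass either (adjusted p = 0.0565 for each), nor did BnaA01g28070D (adjusted p = 0.0523).

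Called genes were spread over all chromosomes, and C09 stood apart in its share of interactions. Among named chromosomes, genes higher in young leaf made up 7.18% (C09) to 12.6% (A04) of the tested genes, and genes higher in silique 17.8% (A10) to 24.5% (C09). An interaction was called for 4.80% of tested C09 genes and for 0.546% (C06) to 2.59% (C02) elsewhere. The excess lay in a stretch from BnaC09g46060D to BnaC09g50980D, chosen after its values were seen. There, 150 of 264 tested genes (56.8%) were higher in silique, against 20.3% of the other 2006 tested genes of C09, and 89 of the 264 had an interaction. The summed FPKM of the stretch was 273 and 448 in young leaf of 2063A, 2192 and 2118 in young leaf of B409, 2318 and 2393 in silique of 2063A and 2880 and 2826 in silique of B409. Young leaf of 2063A was thus the low group, and the median log2 organ difference over the stretch was -1.79 in 2063A and -0.51 in B409. Root of 2063A was low as well, at 570 and 555, against 3091 and 3043 in B409. Flower bud of 2063A stood at 1871 and 1980, also below the 3299 and 3271 of B409. Outside the stretch, 9257 genes were higher in silique and 669 had an interaction.

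**Figure D5:**
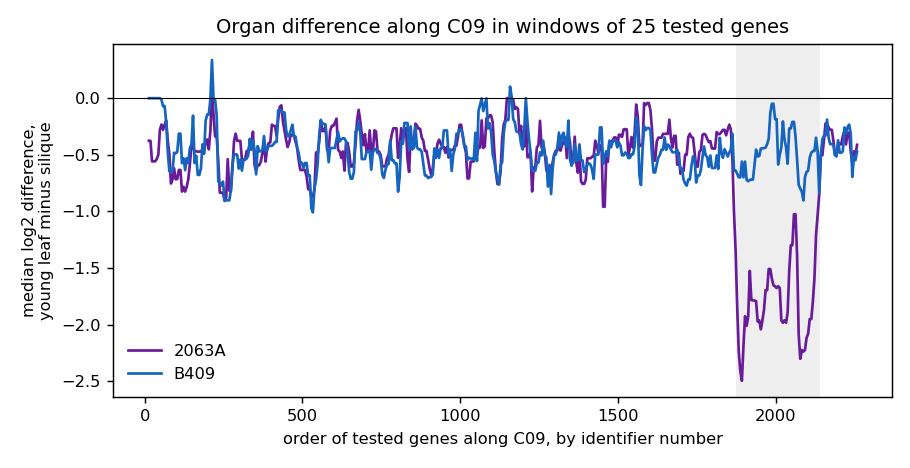
Median log2 difference, young leaf minus silique, in windows of 25 tested genes in order along C09, for 2063A (purple) and B409 (blue), with the stretch shaded. The cultivars lie furthest apart in the shaded stretch, where the median over all its genes is -1.79 in 2063A and -0.51 in B409.

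Some neighbouring genes were called together. Runs of at least 4 consecutive tested genes, all called in 1 direction, numbered 7 for young leaf, where 8.59% of tested genes were called, and 100 for silique, where 20.9% were. Whether these numbers exceed those of unrelated calls was not tested. Of the 100, 13 had members in the C09 stretch and 87 lay outside it, and the 4 longest silique runs, of 8 genes each, were in the C09 stretch. The longest young leaf run had 7 genes on C03, from BnaC03g27350D to BnaC03g27450D, with log2 differences of 1.08 to 3.34 and no interaction. In BnaC03g27360D, its strongest member, young leaf stood at 19.9 and 14.4 in 2063A and at 13.7 and 11.5 in B409, and silique did not exceed 1.53. A silique run of 7 genes on C07 held a block of 6 neighbours, from BnaC07g34570D to BnaC07g34620D, singled out after their values were seen. All 6 were listed at 0 in the 12 libraries of the other tissues. In silique the first 3 stood at 10.01 to 14.8 in 2063A and at 27.3 to 34.5 in B409, and the last 3 at 7.15 to 8.54 and at 13.8 to 15.1 (largest adjusted p = 1.3e-06). The values within each trio were close. Whether the genes of a trio are near-identical copies was not tested, and the sources used here do not say how the authors split reads among such copies.

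Called genes lay in both subgenomes. Of 22074 tested genes of the A subgenome, 9.16% were higher in young leaf and 20.1% higher in silique. Of 22791 on the C side, the shares were 8.05% and 21.7%. The A share of summed FPKM was 53.7% and 51.4% in young leaf of 2063A, 50.3% and 49.8% in B409, and between 49.5% and 49.7% in silique. Every young leaf library lay above every silique library, by 1.69 percentage points on average (exact permutation test within cultivars, two-sided p = 0.0556, the smallest that 36 relabellings allow). Without the 100 genes of highest mean FPKM the difference was 0.69 (exact permutation p = 0.444), and with genes on named chromosomes alone it was 1.03 (exact permutation p = 0.278). Without replicate 1 of 2063A young leaf it was 1.11.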

How the data were processed

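Per the file headers, the authors deposited 1 FPKM value for each gene in each library. Trimmomatic, TopHat2 and Cufflinks 2.1.1 are listed in the submitters' processing notes. The sources used here give neither genome build nor annotation. FPKM is no count, so no count model was used. Absolute depth is unknown, and relative depth was read from the modal ratio of values below 0.3 between libraries (step tolerance 0.02 on the log2 scale).

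The 8 libraries were joined by identifier and fitted with limma 3.58.1 in R 4.3.3 on log2(FPKM + 1), which understates changes of low genes, with organ and cultivar as terms and moderation with a mean-variance trend. P-values were adjusted by Benjamini-Hochberg over 44971 genes, two-sided. The interaction came from 1 mean per group. The code was tested on simulated data. Scaling, pseudocount, filter, spread, block and left-out libraries were varied.

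Named genes were the leading ones by size of difference among called genes without overlap or zeros, by level, among genes listed at 0 in 1 organ, by interaction p, by level among bounded genes, by levels in flower bud and root, and members of the longest runs. The text names leading members of these lists. The members and lists were chosen with earlier results of these data known. Lists of genes by function were planned but matched no identifier, because the RefSeq table for Da-Ae holds 3347 of the identifiers as symbols and gives no function.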

Additional observations from a re-analysis of the deposited data

Results flagged for a closer look

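Chance flags about 1 in 20 groups of 4 libraries as having a single distant value, and 55 groups were examined. Such a value was found for BnaC02g00930D in young leaf, where replicate 1 of B409 read 0.108 and the other 3 libraries 0. Beside 3 values of 0, any value above 0 is flagged. An organ difference that depends on cultivar was found for 758 genes, of which 354 were below an FPKM of 1 in all 4 libraries of 1 cultivar. Of the genes named, BnaC02g00930D had an interaction of 4.21 on the log2 scale (2063A minus B409, limma adjusted p = 0.00069), BnaA01g28070D of 3.79 (adjusted p = 0.00091), BnaA07g06900D of -5.48 (adjusted p = 0.001) and BnaA01g33410D of -3.66 (adjusted p = 0.0012). BnaA01g27380D and BnaA01g27400D, listed at 0 in every silique library, had interactions of 2.33 and 2.32 (adjusted p = 0.03 and 0.028), with higher young leaf levels in 2063A. BnaA06g16950D, with the second largest young leaf contrast among genes also high in flower bud and root that had no overlap and no library listed at 0, had an interaction of 2.55 (adjusted p = 0.011). It was at 35.4 and 41.7 in young leaf of 2063A and at 38.3 and 44.4 in B409, and in silique at 0.918 and 1.81 in 2063A and at 13.3 and 13.9 in B409.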

How the results depend on the processing

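Counts that moved by more than 1.5 times did so under these settings. The median of ratios gave 5998 genes higher in young leaf and 5189 in silique, and quantile normalization 5895 and 5159. A pseudocount of 0.1 gave 14195 genes higher in silique, 10556 genes bounded within 2-fold and 388 interactions. With the spread shared by 16 libraries, 2446 interactions were called, and with cultivar and replicate number as a block, 307. Leaving out both young leaf libraries numbered 1, an alternative chosen after seeing the data, gave 1938 interactions, 3875 genes higher in young leaf and 9181 in silique. Leaving out 1 library at a time gave 3746 to 3923 genes higher in young leaf, 8700 to 10287 in silique, 16493 to 19319 bounded genes, 8 to 747 interactions and a difference in A share of 1.11 to 2.27. Relabelling 4 against 4 libraries without strata gave an A share difference of 1.69 (exact permutation p = 0.0286).

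After quantile normalization, which gives genes of equal rank equal values, BnaC04g30870D stood at -0.055. Its limma adjusted p was then 0.731, against 0.0474 or less under the other settings. The cause of these shifts was not tested. Same-numbered young leaf and silique libraries did not deviate together (r = 0.02 in each cultivar), so the numbers do not pair the organs, although young leaf libraries of the same number deviated together across cultivars (r = 0.35). With cultivar and number as a replicate block, 3845, 9364 and 307 genes were called for young leaf, silique and the interaction. The A share difference then had an exact permutation p of 0.125, the smallest that the blocked relabellings allow. Such a block pairs same-numbered young leaf and silique libraries within a cultivar, so it does not model the deviation that young leaf libraries shared across cultivars. The 2063A libraries alone gave 3804 and 8912 genes and those of B409 3783 and 9422. Depth is known only relative to another library, so differences among genes near an FPKM of 0 are limited by an unknown number of reads.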
